A study of Mus musculus with 4 samples.

Results

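The regions described here were accessible sites in the introns of very long genes of mouse mesenchymal stem cells (MSCs), stem cells that can form bone, cartilage and fat. They were found by ATAC-seq, in which a transposase cuts and tags open DNA so that the number of sequenced fragments at a site measures its accessibility. A peak was a member when it lay on an autosome, was narrower than 8000 bp, lay inside a protein-coding gene longer than 300 kb, overlapped no exon of any gene and was more than 2 kb from every start of a protein-coding transcript. Genes, exons and starts were those of the GENCODE vM21 annotation on the mouse genome build mm10, which is GRCm38. Of the 117282 peaks in the table, 10613 met this rule, which is 9.05%. The rule itself uses position and width, and no measured value. At the edge of the rule, Akap13 at 299076 bp and Jazf1 at 299835 bp were just too short, with 21 and 19 such peaks, and Kcnq3 at 300256 bp and Pam at 300533 bp were just long enough, with 8 and 20.

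The series was set up to describe changes of chromatin with age in MSCs. Of the 4 samples, 2 came from old mice, aged 18 to 22 months, and 2 from young mice of 3 to 5 months, and the cells of both groups were kept at 2% O2. The labels give neither strain nor sorting markers, and do not say whether the samples of a group came from separate animals, so p-values measure the spread between these samples, which may be technical.

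Such a gene consists almost wholly of intron, and its introns can hold many enhancers, which are sites where transcription factors bind and act on the promoter from a distance. Very long genes in mammals code in large part for cell adhesion molecules, ion channels and synaptic proteins of neurons, but also for transcription factors, matrix proteins and cytoskeletal regulators that connective tissue uses. AP-1, RUNX and TEAD factors, which act in mesenchymal cells, bind short sequences that are found mostly away from promoters.

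The sequences of 3 members are shown because they were the members that passed the test between old and young MSCs. Each is the central 300 bp of the peak on the plus strand, read from GRCm38 as given by RefSeq, with matches to 8 motifs in capitals. They lie at chr10:102042551-102042850 in Mgat4c, a gene of the enzyme family that branches N-glycans, at chr5:141463301-141463600 in Sdk1, a synaptic adhesion molecule of the immunoglobulin superfamily, and at chr4:95759401-95759700 in Fggy, a carbohydrate kinase. The windows of Mgat4c and Sdk1 held none of the 8 motifs, and that of Fggy held the E-box CAGCTG.
Mgat4c: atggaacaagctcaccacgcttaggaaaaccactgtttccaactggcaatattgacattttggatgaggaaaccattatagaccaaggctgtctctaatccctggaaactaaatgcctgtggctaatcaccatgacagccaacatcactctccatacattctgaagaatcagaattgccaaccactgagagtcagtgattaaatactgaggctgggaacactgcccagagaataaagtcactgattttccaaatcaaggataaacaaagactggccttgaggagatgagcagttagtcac
Sdk1: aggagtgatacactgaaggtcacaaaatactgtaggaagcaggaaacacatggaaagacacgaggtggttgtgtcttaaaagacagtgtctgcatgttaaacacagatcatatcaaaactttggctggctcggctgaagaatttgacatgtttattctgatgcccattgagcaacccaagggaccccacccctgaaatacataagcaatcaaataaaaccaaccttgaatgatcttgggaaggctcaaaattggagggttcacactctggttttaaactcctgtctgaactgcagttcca
Fggy: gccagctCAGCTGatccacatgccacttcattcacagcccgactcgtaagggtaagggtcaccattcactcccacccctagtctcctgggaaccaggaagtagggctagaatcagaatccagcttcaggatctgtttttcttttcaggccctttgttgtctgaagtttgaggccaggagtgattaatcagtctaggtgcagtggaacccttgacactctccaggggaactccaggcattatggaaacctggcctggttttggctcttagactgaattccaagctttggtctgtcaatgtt

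A further 5 stretches of 120 bases show how AP-1, RUNX and TEAD matches sat in named members. Frmd4a (chr2:4445809-4445928), a FERM-domain scaffold gene, and Camk1d (chr2:5379066-5379185), a calcium-dependent kinase gene, hold members of highest density. Kcnd2 (chr6:21664025-21664144) codes for a voltage-gated potassium channel, Gm20388 (chr8:123173729-123173848) is a gene model that spans many genes, and Fto (chr8:91455762-91455881) codes for an RNA demethylase. These 3 hold members with large differences between the age groups. The capitals mark AP-1 (TGAGTCA or its reverse complement) in Frmd4a, Gm20388 and Fto, with an E-box also in Frmd4a, RUNX (TGTGGTT) in Camk1d and TEAD (the reverse complement of ACATTCC) in Kcnd2.
Frmd4a: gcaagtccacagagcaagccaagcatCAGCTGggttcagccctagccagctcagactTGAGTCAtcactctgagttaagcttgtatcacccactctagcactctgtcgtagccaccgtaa
Camk1d: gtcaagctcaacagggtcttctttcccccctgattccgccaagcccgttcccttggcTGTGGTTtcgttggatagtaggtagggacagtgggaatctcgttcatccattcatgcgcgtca
Kcnd2: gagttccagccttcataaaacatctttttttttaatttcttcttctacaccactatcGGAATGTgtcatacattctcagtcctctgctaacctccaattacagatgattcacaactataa
Gm20388: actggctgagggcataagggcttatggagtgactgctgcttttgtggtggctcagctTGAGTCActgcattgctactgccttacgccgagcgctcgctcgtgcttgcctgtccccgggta
Fto: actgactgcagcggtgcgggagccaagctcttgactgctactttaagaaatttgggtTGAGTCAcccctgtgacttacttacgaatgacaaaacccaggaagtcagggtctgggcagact

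Over all members, the AP-1 motif TGAGTCA was the most frequent of the 8, read on both strands of the central 300 bp, and 1956 of the members had it, which is 18.4%. It was in 17.5% of the windows of intronic peaks in shorter genes, in 19.2% of those of peaks outside protein-coding genes and in 5.34% of those of promoter peaks, which lay within 1 kb of a protein-coding start. Windows of the same length centred 5 kb beyond the end of a member, where no peak lay, had it in 4.34% of 9061 cases. Thus members held AP-1 matches at a share close to that of other distal peaks and above both promoter peaks and their own flanks. RUNX (TGTGGTT) was in 1168 members, or 11.01%, against 6.63% of flanks, TEAD (ACATTCC) in 7.99% against 4.36%, and the E-box CAGCTG in 16.5% against 11.8%. CTCF (CCNCNAGGNGGC) was in 0.791% against 0.132% of flanks, and EBF (TCCCNNGGGA) in 0.952% against 0.541%. ETS (CCGGAAGT) was in 26 members and NFI (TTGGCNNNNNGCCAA) in 4. AP-1 and RUNX were found together in 198 members, AP-1 and TEAD in 144, and 5773 members had none of the 8 motifs. These shares are counts of letters in the reference and were not tested.

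**Figure D1:**
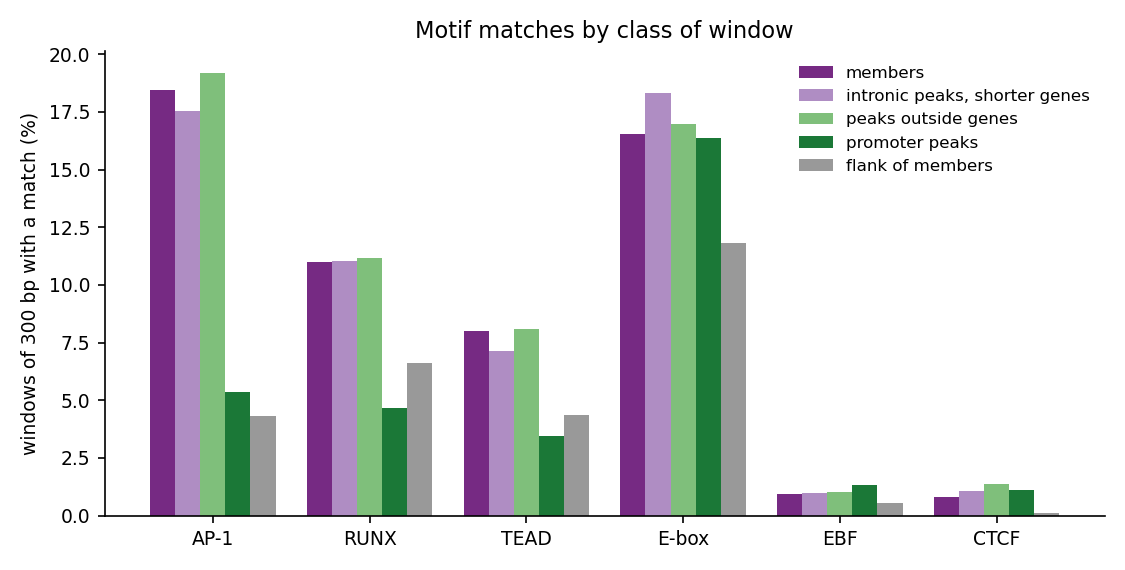
Share of windows of 300 bp (y axis, percent) that hold each of 6 motifs (x axis), in members, intronic peaks of shorter genes, peaks outside protein-coding genes, promoter peaks and the flanks of members. The AP-1 bars of members, shorter genes and peaks outside genes stand between 17.5% and 19.2%, while those of promoter peaks and flanks stay at 5.34% and 4.34%.

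The deposited value of a peak was read as its count divided by the library total and multiplied by 10000000, a factor that was assumed. On this reading library totals were between 28259470 and 32559794 counts, and 3 counts corresponded to values between 0.921 and 1.06. The mitochondrial chromosome took 6.52% of the summed values of old replicate 2 and between 13.5% and 15.7% in the other samples. RLE (relative log expression) factors, which set the typical peak equal between samples, were 0.817 and 1.01 for the old and 1.07 and 1.15 for the young replicates, so that the deposited values of all peaks had a median log2 fold change of -0.27 between old and young MSCs, and of 0.0011 after division by the factors. All 8 MSC marker genes had a promoter peak. Of 8 blood and macrophage genes, 3 had one, Spi1 and Csf1r among them, with summed values between 96.2 and 160 per sample against 1355 to 1874 for the MSC genes, and of 4 endothelial genes, 3 had one, with sums between 56.3 and 86.4. Ptprc, which codes for CD45, had none. These sums cover unlike numbers of peaks. The median promoter peak had 101 to 143 for MSC genes, 24.5 to 47.9 for blood and macrophage genes and 22.0 to 28.3 for endothelial genes. Csf1r had values from 62.9 to 120, above the MSC gene Eng with 15.4 to 25.8. The part of other cell types in the results was not tested. With 2 samples in each group, an exact permutation test of a single value cannot go below p = 0.33.

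The annotation held 541 autosomal protein-coding genes longer than 300 kb, and 514 of them had at least 1 member. The median gene had 16 members, or 34.7 per Mb (quartiles 12.7 and 59.5). Gene length said little about the number of members, with a Spearman correlation of 0.145 over the 541 genes, which is given as a description. The gene models with most members were Gm20388 with 307 and Fgfr2 with 176. Both records are much longer than the gene they are named for or hold other genes: Gm20388 (chr8:119910841-124345722) spans 71 other protein-coding genes and Fgfr2 (chr7:130162451-133123350) spans 29, so their members cannot be ascribed to 1 gene. In total, 8 such models that hold 5 or more other genes contained 581 members, which is 5.47%. Leaving these aside, the longest rows of members were those of Pde4d (91), a phosphodiesterase of cyclic AMP, Rbms3 (66), an RNA-binding protein, Rora (65), a nuclear receptor, Gpc6 (63), a glypican, Nav2 (62), a microtubule-associated navigator protein, Wwox (61), an oxidoreductase gene at a common fragile site, and Prkg1 (59), the kinase activated by cyclic GMP. Gm37240, with 79, also held 6 other genes.

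Per length, the most densely occupied very long genes were Ldlrad4 with 143 members per Mb, Cmss1 with 128, Atxn1 with 123, Ror1 with 120 and Nfia with 116. These were singled out after their values were seen. Ror1 is a receptor for Wnt5a, and Nfia and Ebf1, which had 110 per Mb, are transcription factors. At the other end, 27 genes had no member. These held Cntn3, Cntn4, Cntnap4, Cntnap5a, Cntnap5c, Cdh8 and Lrfn5 among the adhesion molecules of neurons, the ephrin receptors Epha5 and Ephb1, the matrix proteoglycans Spock1 and Spock3, and Dock2, an activator of Rac in blood cells. Sntg1 at 938 kb and Cntn4 at 1022 kb were the longest of them.

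Members were spread evenly along their genes. Cut into 10 equal stretches from start to end, the genes held between 8.61% and 10.7% of the members in each stretch, models that hold other genes left out. The median distance to the nearest protein-coding start was 76.9 kb (quartiles 31.4 and 156 kb), against 21.1 kb for intronic peaks in shorter genes, and 41.2% of members were more than 100 kb from every start, against 6.34%. The rule for gene length favours such distances. The median member was 1000 bp wide, as were intronic peaks of shorter genes and peaks outside genes, and its GC content was 44.1%, against 45.6%, 44.9% and, for promoter peaks, 51.8%.

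The median deposited value of a member was 10.1 and 12.0 in the old and 13.1 and 14.3 in the young replicates. Per 100 bp of peak this was a density of 1.05, 1.23, 1.36 and 1.53, while promoter peaks had densities between 2.06 and 3.03. The ratio of the median density of members to that of intronic peaks in shorter genes was 1.02 and 0.952 in the old and 1.06 and 1.09 in the young replicates, with a mean of 1.03. It was thus above 1 in 3 samples and below 1 in old replicate 2, and the mean turned to 0.973 when values were not divided by peak width. An exact sign-flip test over 4 samples, which cannot go below p = 0.125, gave p = 0.375. The highest members reached 288, 330, 395 and 432 in the 4 samples, while between 102 and 332 members per sample had 3 counts or fewer.

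The 5 members of highest density lay in Arid1b, Frmd4a, Camk1d, Opcml and Trpm3. The member of Arid1b, which codes for a subunit of the BAF chromatin remodelling complex (chr17:5138001-5140100), had a mean density of 12.7 ± 2.56 per 100 bp (SD, n = 4). Its deposited values were 212 and 244 in the old and 274 and 338 in the young replicates, which did not overlap before the RLE factors were applied. After them the groups overlapped, and the log2 fold change was -0.13 ± 0.14 (SE, limma adjusted p = 0.674). The members of Frmd4a, Opcml, an adhesion molecule of the IgLON family, and Trpm3, a cation channel, had densities between 10.0 and 11.6 and log2 fold changes between -0.069 and -0.020. That of Camk1d stood apart, since it had values of 64.7 and 153 in the old and 66.2 and 60.5 in the young replicates. Its high level was that of old replicate 2 alone, and its log2 fold change of 0.93 ± 0.24 did not pass the test (limma adjusted p = 0.0606).

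To compare old with young MSCs, the difference of log2(value/RLE factor + 1) was taken for each peak. The median log2 fold change of members was -0.043, and 54.0% of them were lower. For the 4 pairs of an old with a young sample the medians were -0.0055, -0.042, -0.053 and -0.10, the first 2 for old replicate 1 and the last 2 for old replicate 2. The sample medians of log2(value/RLE factor + 1) were 3.75 and 3.68 in the old and 3.72 and 3.74 in the young replicates. By these the groups overlapped, and old replicate 1 was the highest. As deposited, without the factors, 75.3% of members were lower, with a median log2 fold change of -0.31, and that of all peaks shifted to -0.27.

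Intronic peaks of shorter genes moved the other way, with a median log2 fold change of 0.055 and 44.9% lower. The median of members minus that of shorter genes was -0.098, and -0.047, -0.068, -0.13 and -0.17 for the 4 pairs. Members were below the intronic peaks of shorter genes on 18 of the 19 autosomes. The exception was chromosome 8, which carries Gm20388. Against peaks outside protein-coding genes, which had a median of -0.031, members differed by -0.012. Thus the members were nearer to intergenic peaks than to the introns of shorter genes. These medians carry no p, since the exact permutation test over samples cannot go below 0.33.

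The medians were lower the longer the gene, up to 500 kb, and less low beyond. From genes under 20 kb, with a median log2 fold change of 0.13, they went through 0.096, 0.077 and 0.046 to 0.0015 in genes of 200 to 300 kb. Among the members they were -0.056 for genes of 300 to 500 kb, -0.042 for 500 to 1000 kb and -0.012 above that. The last class, of 1870 members, includes the models Gm20388, Fgfr2 and Gm37240, which hold other genes. They had 307, 176 and 79 members with medians of 0.33, 0.089 and 0.040, and the class was not taken without them. Without all models that hold 5 or more other genes, the median of all members was -0.060 in place of -0.043. Pair by pair, old replicate 1 against young replicate 1 gave values between -0.032 and 0.047 in all 8 classes, and old replicate 2 against young replicate 2 gave values from 0.15 down to -0.11. Base composition moved with gene length, from a median GC content of 47.0% in the shortest class to between 43.7% and 44.4% in members, and so did the distance to the nearest start.

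**Figure D2:**
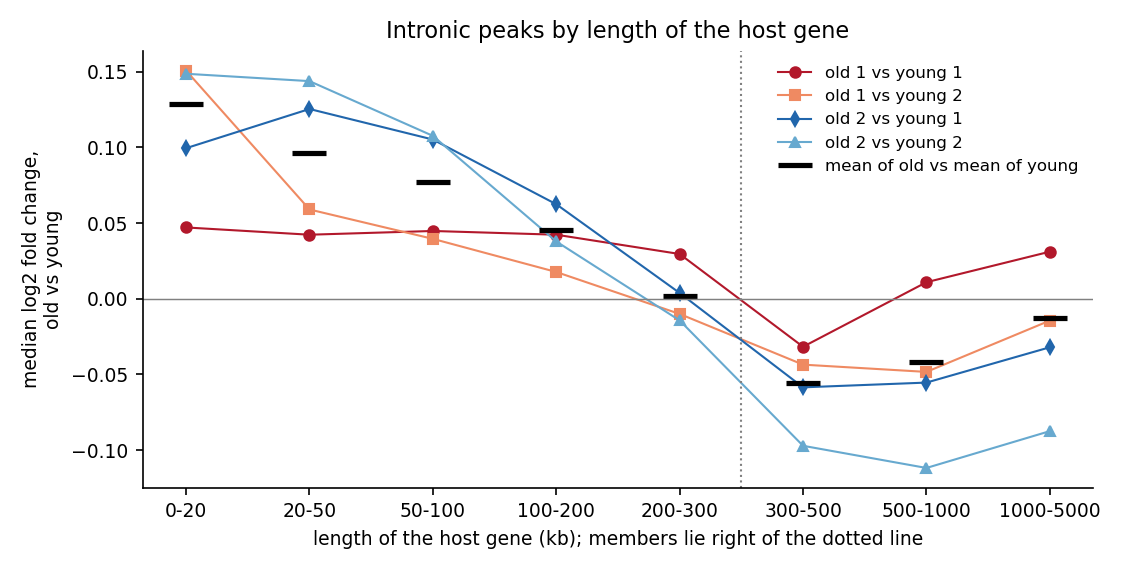
Median log2 fold change of intronic peaks between old and young MSCs (y axis) by the length of the host gene in kb (x axis), for each of the 4 pairs of an old with a young sample (coloured lines) and for the group means (black bars). The bars pass from 0.13 in the shortest class to -0.056 at 300 to 500 kb, and old replicate 1 against young replicate 1 shows the flattest line.

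GC content went along with the difference inside the members as well. Members of at most 38% GC had a median log2 fold change of -0.30, and those above 50% one of 0.19, with -0.15, -0.041 and 0.034 in the classes between. Intronic peaks of shorter genes showed the same order, from -0.18 to 0.19. Within classes of GC content, the difference of members from shorter genes was between -0.12 and -0.0045. After adjustment for GC content and for peak width, the difference from shorter genes was -0.068 in all, and -0.045, -0.034, -0.093 and -0.10 for the 4 pairs. By distance, members within 10 kb of a start had a median of 0.011 and those beyond 300 kb one of -0.19. The part of GC content in these differences beyond this adjustment was not tested.

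Members with and without a motif differed in their medians, in a direction that depended on the motif. Those with AP-1 had a median log2 fold change of -0.0045 and those without of -0.052, and the first were higher in all 4 pairs, by between 0.028 and 0.067. Those with RUNX had a median of -0.13 against -0.035 without, and those with TEAD of -0.12 against -0.038, both lower in all 4 pairs. Their median GC content was 43.9%, 43.4% and 43.6%, against 44.2%, 44.2% and 44.1% without the motif. With the E-box the median was 0.0028 and without it -0.054, at a GC content of 45.5% against 43.9%. EBF gave -0.13 against -0.043, with the motif in 101 members, and CTCF 0.062 against -0.043, with the motif in 84. For E-box, EBF and CTCF the 4 pairs differed in sign. These differences were not tested.

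Peak by peak, 2 members fell and 1 rose in old MSCs at an adjusted p under 0.01 (limma, adjusted over all 117282 peaks), where 0.0307% of all peaks were lower and 0.0256% higher. At an adjusted p under 0.05 there were 129 lower and 33 higher members, which is 1.22% and 0.311%, against 0.771% and 0.351% of all peaks. At an unadjusted p under 0.05 there were 1246 lower and 718 higher, which is 11.7% and 6.77%, against 8.87% and 7.49%. The old and young samples did not overlap in 2966 members that were lower (27.9%, against 24.2% of all peaks) and in 2280 that were higher (21.5%, against 23.2%). The shares of lower members were thus above those of all peaks at each of these limits other than the first, where 2 peaks allow no comparison. Peaks outside protein-coding genes came close to members. Of these, 1.15% were lower at an adjusted p under 0.05, 11.1% at an unadjusted p under 0.05 and 26.6% without overlap. The excess over all peaks was thus not particular to members.

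The strongest fall past the threshold was in Mgat4c (chr10:102042401-102043000, an intronic site 116 kb from the nearest start). Its deposited values were 4.20 and 9.52 in the old and 30.4 and 36.7 in the young replicates, so that each young sample was above each old one. The log2 fold change was -1.96 ± 0.30 (SE, limma adjusted p = 0.00868). In Sdk1 (chr5:141462601-141464300, 221 kb from the nearest start), the values were 45.1 and 34.4 in the old and 115 and 145 in the young replicates. The groups lay far apart, and the log2 fold change was -1.40 ± 0.22 (limma adjusted p = 0.00931). The member that rose, in Fggy (chr4:95759001-95760100), was 9.41 kb from the nearest start and had values of 25.5 and 41.8 in the old and 7.79 and 7.82 in the young replicates. The young samples were nearly equal and the old ones several times higher, with a log2 fold change of 2.20 ± 0.27 (limma adjusted p = 0.0024). These calls were lost without young replicate 1, where the adjusted p values from limma were 0.0701, 0.0825 and 0.0112, and without young replicate 2, where they were 0.167, 0.249 and 0.0210. In each case the direction stayed. Over the other alternatives with all 4 samples, the limma adjusted p was 1.35e-06 to 0.0854 for Mgat4c, 2.93e-06 to 0.121 for Sdk1 and 7.17e-09 to 0.0845 for Fggy, lowest with a replicate block and highest with plain moderation.

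Among the lower members that did not pass the threshold of 0.01, those of Nebl, Kcnd2 and Negr1 had the largest log2 fold changes of the members at an unadjusted p under 0.01 without overlap and with a mean value of at least 5 in a group. Their log2 fold changes, from -2.20 to -2.11, were larger in size than those of the 2 that passed. Nebl codes for nebulette, an actin-binding protein of the Z-disc, and its member (chr2:17493601-17494000) had 2 and 0 counts in the old and 20 and 14 in the young replicates. The ratio of old to young counts per library total was 0.0555 with a 95% exact interval from 0.00646 to 0.216, which covers counting error only. The member of Kcnd2 (chr6:21663801-21664300) had values of 1.05 and 3.07 in the old and 14.2 and 13.9 in the young replicates, with a log2 fold change of -2.17 ± 0.39 (limma adjusted p = 0.0159). It is the site with the TEAD match shown above. Negr1, an IgLON adhesion gene, had values of 1.40 and 0.307 in the old, the second being 1 count, and 7.08 and 8.84 in the young replicates (limma adjusted p = 0.0353).

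Among the higher members, the same rule named those of Gm20388, Lrmda, Fto and Mcc, which did not pass either. The member under Gm20388 (chr8:123173601-123174100) lay 12.1 kb from the start of Dpep1, a dipeptidase gene, and had values of 5.94 and 15.7 in the old and 1.42 and 2.38 in the young replicates. Its log2 fold change was 2.13 ± 0.42 (limma adjusted p = 0.0231). In Lrmda, a leucine-rich repeat gene known from melanocytes (chr14:22565101-22566100), the values were 11.9 and 19.7 in the old and 3.89 and 4.42 in the young replicates, with a log2 fold change of 1.91 ± 0.33 (limma adjusted p = 0.0141). In each of these members the old samples were above the young ones. The site in Fto (chr8:91455701-91456000) had 3.15 and 7.99 in the old against 1.42 and 0.680 in the young replicates, the last being 2 counts (limma adjusted p = 0.0667). The member of Mcc, a gene named for its mutation in colorectal cancers, had 15.7 and 17.8 in the old against 3.89 and 7.14 in the young replicates (log2 fold change 1.75 ± 0.32, limma adjusted p = 0.0187).

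**Figure D3:**
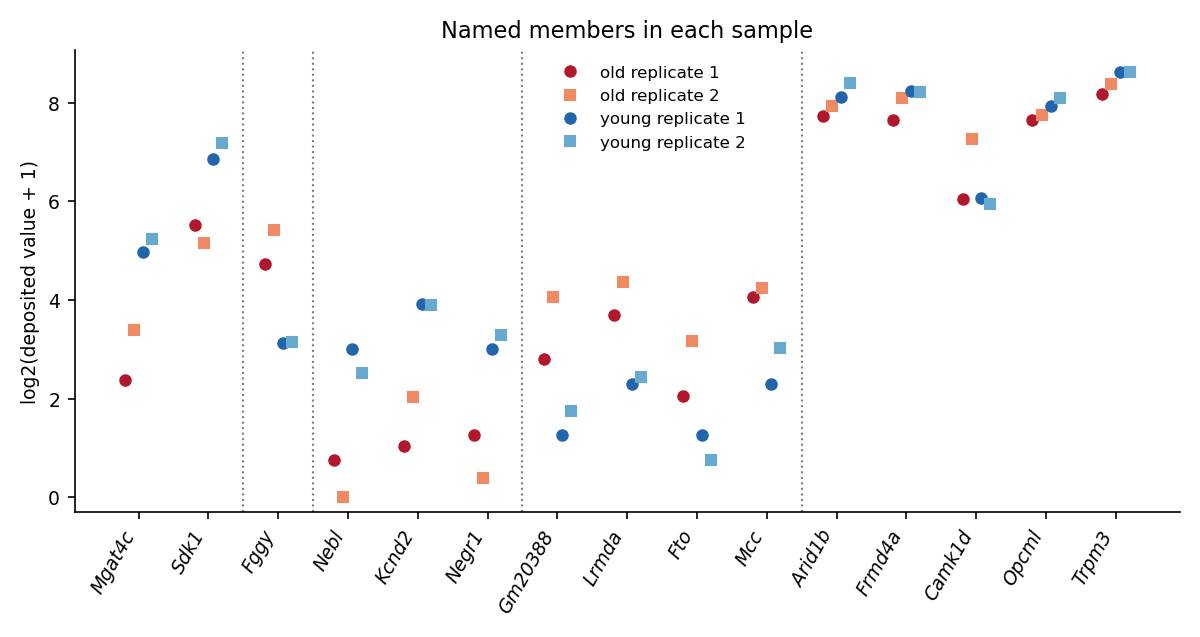
Deposited values of 15 named members in each of the 4 samples, as log2(value + 1) on the y axis, by host gene on the x axis. Dotted lines part, from left to right, the members that fell, the one that rose, the lower and the higher members of largest change that did not pass, and the 5 of highest density. Old and young samples are apart in the first 10 members, and old replicate 2 alone stands out in Camk1d.

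A gene with many members is measured with more counts than any of its peaks, so the values of the members were also summed for each gene and tested together with the same sums of shorter genes, 7464 genes in all. RLE factors were computed anew on the sums, at 0.815 and 1.05 for the old and 1.05 and 1.14 for the young replicates. Fold changes of sums are therefore not on the scale of those of single peaks. In this test the very long genes leaned towards lower accessibility in old MSCs. Of 514, 396 were lower, which is 77.0%, with a median log2 fold change of -0.16, whereas 48.1% of shorter genes were lower, with a median of 0.016. The share rose with length among the shorter genes too. It was 44.0% up to 50 kb, 47.6% at 50 to 100 kb and 56.3% at 100 to 300 kb, where the median was -0.036. The median gene of these classes summed 1, 3 and 7 peaks, against 18 in very long genes. For the 4 pairs, the medians of the very long genes were -0.051, -0.11, -0.24 and -0.32. As deposited, 95.3% of the very long and 73.2% of the shorter genes were lower. With equal total signal the shares were 70.6% and 42.9%. The difference between very long and shorter genes in the median rested more on old replicate 2: it was -0.18 with all samples, -0.083 without that sample and -0.32 without old replicate 1. With the median over a gene's peaks in place of the sum, and the factors of the peaks, 65.0% of very long and 41.2% of shorter genes were lower. After adjustment for GC content and for width these shares were 57.8% and 40.6%.

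No very long gene passed an adjusted p of 0.01 in limma, where 0.0134% of all genes were lower and 0.0134% higher, and 3 were lower in limma-voom. At an adjusted p under 0.05, 14 were lower and 1 was higher, against 0.375% and 0.0804% of all genes. At an unadjusted p under 0.05, 131 (25.5%) were lower and 9 (1.75%) higher, against 8.71% and 6.85% of all genes. The samples did not overlap in 234 lower and 41 higher very long genes, against 24.1% and 23.6% of all genes.

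The gene with the smallest p was Grin2b, a subunit of the NMDA glutamate receptor (chr6:135713233-136173511). Its 10 members summed to 103 and 99.5 in the old and 251 and 259 in the young replicates, so the old samples were alike and well below the young ones. The log2 fold change was -1.08 ± 0.17 (SE, limma adjusted p = 0.0194). Gabrg3, a subunit of the GABA-A receptor (chr7:56716465-57387188), had 20 members that summed to 255 and 204 in the old and 528 and 602 in the young replicates (-1.06 ± 0.18, limma adjusted p = 0.0304). In Gpc5, a glypican of the cell surface (chr14:115092215-116525179), 6 members summed to 36.4 and 31.3 in the old against 86.3 and 125 in the young replicates (-1.35 ± 0.22, limma adjusted p = 0.0276). Lrp1b, a receptor of the LDL receptor family, and Adgrb3, an adhesion G protein-coupled receptor, rested on 2 and 1 members of low value. Lrp1b had 1.40 and 1.84 in the old against 10.6 and 13.3 in the young replicates, and Adgrb3 2.45 and 1.84 against 13.4 and 13.9. In each of these 5 genes the old samples lay below the young ones, and none passed 0.05 without young replicate 2, while Gpc5 did without young replicate 1.

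The other genes that were lower at an adjusted p under 0.05 were Lrrtm4 and Sdk1, adhesion molecules of synapses, Tenm3, a teneurin, Kcnip4, a partner of potassium channels, Mgat4c, Xkr4, Rp1, a microtubule protein of photoreceptors, and the unnamed genes 5730522E02Rik and 2210408I21Rik. They were named after their values were seen. Lrrtm4 and Rp1 rested on 1 member each, and Xkr4 and 5730522E02Rik on 4 each. The sums of Sdk1 and Mgat4c hold the members that passed the test of single peaks. Kcnip4, with 18 members, had sums of 205 and 189 in the old and 392 and 504 in the young replicates, and Tenm3, with 25 members, had 214 and 206 against 422 and 477. Both were lower by nearly the same amount, with log2 fold changes of -0.93 ± 0.17 and -0.85 ± 0.16 (limma adjusted p = 0.0306 for both).

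In the other direction, Nkain2, which codes for a protein that interacts with the sodium pump, had 3 members with sums of 28.7 and 35.9 in the old and 13.1 and 19.4 in the young replicates (1.20 ± 0.25, limma adjusted p = 0.0498). Prdm16, a regulator of brown fat identity (chr4:154316125-154636873), had 28 members with sums of 723 and 1058 in the old and 751 and 696 in the young replicates. As deposited, old replicate 1 lay between the young samples. After the RLE factors of the sums, both old samples were above both young ones, at 887 and 1010 against 718 and 608. The log2 fold change was 0.52 ± 0.13 (limma adjusted p = 0.0941). Mad1l1, a protein of the spindle checkpoint, Prkca, protein kinase C alpha, and Ralyl, an RNA-binding protein, followed with log2 fold changes of 0.49, 0.32 and 0.47 and limma adjusted p values between 0.172 and 0.244.

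The genes were next grouped by role, and the counts of each list stand against 25.5% lower and 1.75% higher among all very long genes at an unadjusted p under 0.05. The very long genes of transcription factors and nuclear regulators were the most densely occupied of the 10 gene lists. The 37 such genes held 1210 members, or 63.0 per Mb, against 34.4 per Mb over all very long genes. Rora had 65 members, Foxp1, a forkhead repressor, 53, and Zfhx3, a homeodomain and zinc finger protein, 52. Their summed values differed little between the age groups: Rora had 1138 and 1735 in the old and 1647 and 1798 in the young replicates, and the 3 genes had log2 fold changes of -0.048, 0.0081 and 0.056. Of the 37, 5 were lower at an unadjusted p under 0.05 (Tox, Tshz2, Klf12, Myt1l and Esrrg) and 2 higher (Prdm16 and Cux1), with a median of -0.050 against -0.16 for all very long genes. The median over their members, with the factors of the peaks, was on the other side of 0, at 0.018.

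Cytoskeletal and GTPase regulators had 51.2 members per Mb and a median of -0.13, and 3 of 30 genes with a member were lower at an unadjusted p under 0.05 (Fmn2, Diaph3 and Frmd4a) and 0 higher. Their leading genes were Nav2 with 62 members, Lpp, a LIM protein of focal adhesions, with 50, and Sgcd, a sarcoglycan, with 43. Their log2 fold changes were 0.032, 0.14 and -0.16. Intracellular kinases, phosphodiesterases and lipases had 55.6 members per Mb and a median of -0.10, with 5 of 24 lower and Prkca higher. Pde4d, with sums of 1520 and 1925 in the old and 2004 and 2325 in the young replicates, had a log2 fold change of -0.091, Prkg1 one of 0.018, and Prkce, protein kinase C epsilon, with 48 members, one of -0.059.

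Matrix and secreted signal genes had 34.0 members per Mb and a median of -0.22, and 5 of 22 were lower at an unadjusted p under 0.05, with 0 higher. These were Gpc5, Gpc6, Col25a1, a transmembrane collagen, Slit2, a guidance ligand of Robo receptors, and Hmcn1, a large matrix protein. Gpc6 was the best occupied of the list with 63 members, which summed to 1296 and 1390 in the old and 1814 and 2090 in the young replicates. The old samples were below the young ones, with a log2 fold change of -0.29 ± 0.11 (limma adjusted p = 0.249). Slit3, a further guidance ligand, had 56 members and -0.20, and Adamtsl1, a matrix protein related to ADAMTS proteases, had 49 members and -0.27.

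Growth factor and guidance receptors had 30.6 members per Mb, or 24.5 without the Fgfr2 model, and a median of -0.23, with 8 of 22 lower and 0 higher. The lower ones held the Slit receptors Robo1 (-0.49) and Robo2 (-0.99), the neurotrophin receptor Ntrk2 (-0.84) and the latrophilin Adgrl3 (-0.72). Ror1 with 42 members and Ntrk3, a further neurotrophin receptor, with 44 had -0.097 and 0.042. All 6 receptor tyrosine phosphatases were lower, with a median of -0.28, and Ptprt and Ptprd had an unadjusted p under 0.05. Ptprm and Ptprg had 52 and 49 members with -0.17 and -0.13.

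Adhesion genes of neurons were the most thinly occupied list, with 639 members in 42.5 Mb, and 7 of 48 genes had none. Their median log2 fold change was -0.32, the lowest of the lists with all samples but not without old replicate 2, and 14 of 41 were lower at an unadjusted p under 0.05, while 0 were higher. These were Lrrtm4, Tenm3, Sdk1, Negr1, Ncam2, Lsamp, Ntm, Cntn5, Dscam, Csmd1, Ctnna3, Lrrc4c, Pcdh7 and Tenm2. The 3 genes of this list with most members were not among them: Cdh13, T-cadherin, had 54 members and a log2 fold change of -0.053, Tenm4 had 44 and -0.034, and Kirrel3 had 35 and -0.12. The median was -0.53 without old replicate 1 and -0.054 without old replicate 2.

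Ion channel and synapse genes had 27.5 members per Mb and a median of -0.20, and 22 of 67 were lower and 2 higher at an unadjusted p under 0.05. Among the lower were the glutamate receptors Grin2a, Grin2b, Grik1, Gria1 and Grid1, the GABA-A subunit Gabrg3, the calcium channel genes Cacna1d, Cacna1e and Cacna2d1, and the potassium channel genes Kcnd2, Kcnq3 and Kcnn2. Nkain2 and Ryr3, a calcium release channel, were the 2 that were higher. The leading genes Ank3, Rbfox1 and Dlg2 had 50, 49 and 48 members with -0.11, -0.11 and 0.043.

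Of 20 genes named for common fragile sites, 8 were lower and 0 higher, with a median of -0.24. Wwox and Macrod2 had 61 and 57 members with 0.026 and -0.26, and Foxp1 stands in this list too. The 5 control genes of other lineages held 35.4 members per Mb in 4 genes, with a median of -0.22 and none at an unadjusted p under 0.05. Among them, Elmo1, which acts with Dock proteins, had 35 members that summed to between 1187 and 1686, Trpm3 had 37 and Arhgap15, a Rac regulator, had 25. The median of the gene sums was below 0 in each of the 10 lists as deposited, with equal total signal, with pseudocounts of 0.1 and 5, without the lowest quartile of sums and without each sample in turn. Its size depended on the old samples in most lists. Without old replicate 1 and without old replicate 2 it was -0.35 and -0.077 for matrix genes, -0.40 and -0.11 for receptors, -0.38 and -0.063 for channel genes, -0.46 and -0.11 for phosphatases, -0.42 and -0.058 for fragile sites and -0.39 and -0.050 for the control genes. For cytoskeletal genes it was -0.21 and -0.063, for kinases -0.12 and -0.070 and for transcription factors -0.034 and -0.037, and over all very long genes -0.29 and -0.069. The median GC content of the members was between 42.4% and 45.5% in the 10 lists. The median over the members of a gene was also taken in place of the sum, with the factors of the peaks. Upon adjustment for GC content and width, the median of a list then went from -0.16 to -0.10 for the adhesion genes. For the channel genes it went from -0.15 to -0.066 and for the matrix genes from -0.17 to -0.14. It went from -0.18 to -0.11 for receptors, from -0.24 to -0.12 for phosphatases, from -0.13 to -0.042 for fragile sites and from -0.17 to -0.036 for the control genes. For cytoskeletal genes it turned from -0.047 to 0.0028 and for kinases from -0.00053 to 0.020, and for transcription factors it was 0.0053 and then 0.042. By this measure adhesion genes were not the lowest list.

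**Figure D4:**
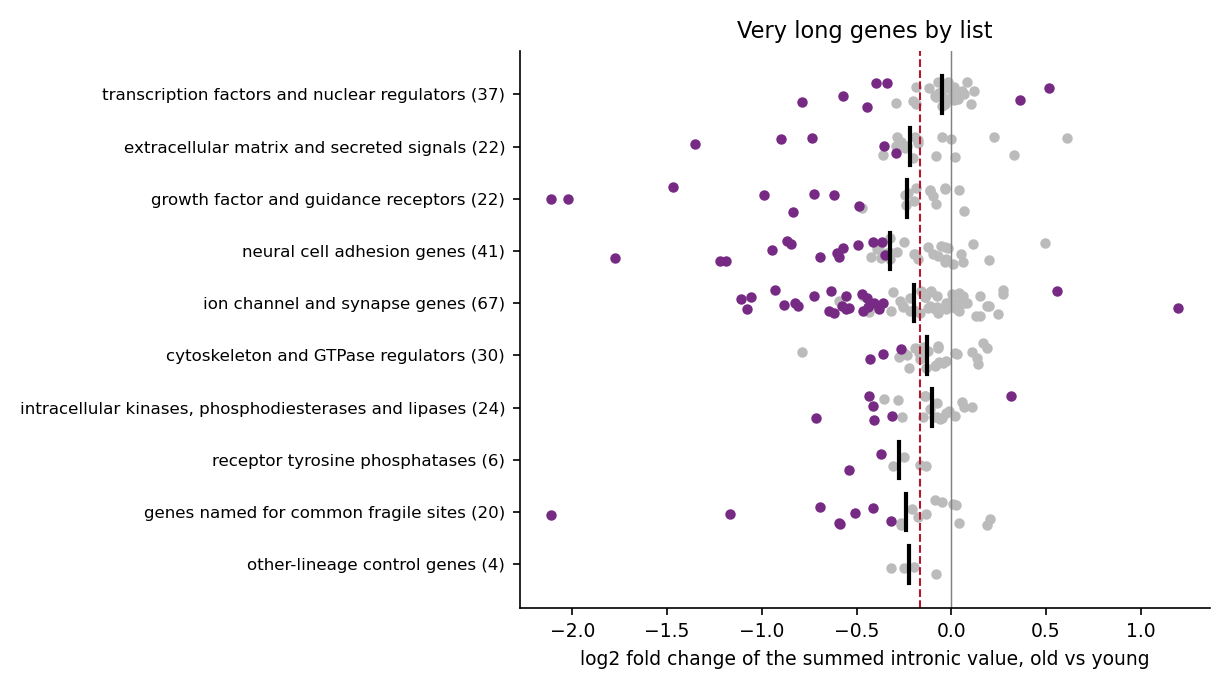
Log2 fold change of the summed value of the members of each very long gene between old and young MSCs (x axis) in 10 gene lists (y axis, number of genes with a member in brackets). Purple points have an unadjusted p under 0.05 in limma, grey points do not, black bars are list medians and the dashed line is the median of all very long genes, -0.16. Adhesion genes of neurons have the lowest bar, -0.32, and transcription factors the highest, -0.050.

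Within single genes, members differed in direction. At an unadjusted p under 0.05, where 8.87% of all peaks were lower and 7.49% higher, a gene with many members holds some of each at these shares alone. Of 355 genes with 10 or more members, 197 had members at an unadjusted p under 0.05 in both directions, 120 had lower ones alone, 29 higher ones alone and 9 neither. The median SD of the log2 fold change among the members of a gene was 0.45. Pde4d had 9 lower and 4 higher of 91 members at that limit and Rora 3 and 4 of 65, near or below the shares of all peaks. In 5 genes every member was lower, namely Fam19a2, a secreted protein of the nervous system, Adgrl3, Slit2, Ube2e2, a ubiquitin-conjugating enzyme, and Grin2b. In Adgrl3 the 14 members ranged from -1.78 to -0.20 with a median of -1.21, and 10 of them had an unadjusted p under 0.05. The 10 members of Grin2b ranged from -1.93 to -0.18, with 6 at that limit. Their median GC content was 39.3% and 44.2%, and their medians after adjustment for GC content and width were -0.97 and -1.21.

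At the other end, 9 of the 355 genes had at most 20% of their members lower, against 47 genes with at least 80% lower. These 9 were Prdm16, Gse1, Cux1, Mad1l1, Megf11, Atxn1, Dock1, Prkca and the model Gm20388. In Prdm16, 26 of 28 members were higher, the lowest was at -0.69, and 14 had an unadjusted p under 0.05. The highest of them (chr4:154385101-154386300) had deposited values of 10.1 and 14.7 in the old and 6.02 and 3.40 in the young replicates, without overlap (limma adjusted p = 0.0461). In Atxn1, which codes for ataxin 1, 15 members were higher and 2 lower at that limit, and in Prkca 9 and 1. Members of Prdm16, Gse1 and Mad1l1 had a median GC content of 52.5%, 55.8% and 52.3%, above the 44.1% of all members, and those of Atxn1 and Prkca 45.2% and 46.7%. After adjustment the medians were 0.43 in Prdm16, 0.15 in Gse1, 0.41 in Mad1l1, 0.40 in Atxn1 and 0.27 in Prkca.

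**Figure D5:**
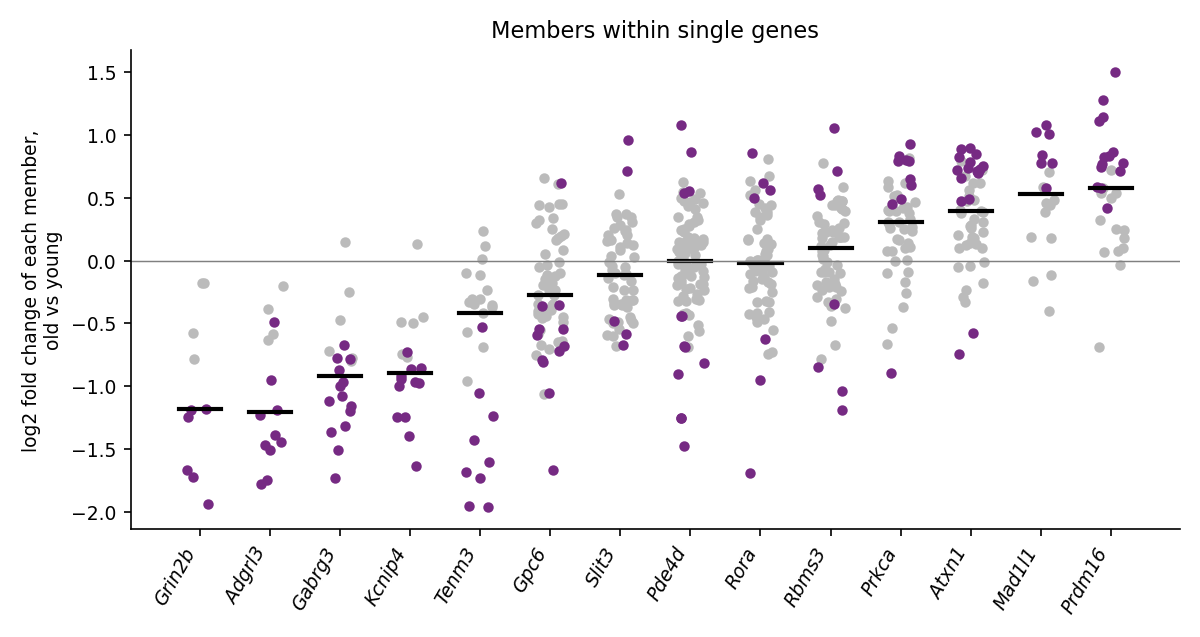
Log2 fold change of each member between old and young MSCs (y axis) in 14 very long genes (x axis), with the median as a black bar. Purple points have an unadjusted p under 0.05 in limma and grey points do not. Grin2b and Adgrl3 lie wholly below 0, Pde4d, Rora and Rbms3 spread to both sides, and 26 of 28 points of Prdm16 lie above 0.

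The promoters of these genes were measured as single peaks, with the factors of the peaks. For 434 of the 514 genes a promoter peak had the gene as its nearest start, and the highest was taken. Their median log2 fold change was -0.069, with 0 past an adjusted p of 0.01 in limma. With the same factors, the median over a gene's members was -0.11 in the median of the 514 genes. At an unadjusted p under 0.05, 40 of the 434 promoters were lower and 8 higher, against 5.21% and 4.4% of all promoter peaks. Across the 434 genes, the log2 fold changes of the promoter and of the summed intronic value went together loosely. Their Spearman correlation was 0.384 and their Pearson correlation 0.365. The genes are not independent replicates and share the same libraries, so no p is given. Of the 107 genes with a promoter peak that were lower in their introns at an unadjusted p under 0.05, 85 had a lower promoter, with a median of -0.19. Among all promoter peaks 53.9% were lower, and the median of the 434 promoters was itself -0.069. The share of lower promoters among the 434 is not given here. Sdk1 was lower at both, with promoter values of 68.2 and 56.8 in the old and 136 and 131 in the young replicates, which did not overlap (limma adjusted p = 0.0551). Kcnip4 was not, with promoter values of 17.5 and 19.7 in the old and 19.5 and 24.5 in the young replicates, and a log2 fold change of 0.051 beside -0.93 in its introns. In summed intronic values, with the factors of the sums, the 434 genes with a promoter peak had a median log2 fold change of -0.15. The 80 genes without such a promoter peak had a median of -0.23, and Grin2b, Gabrg3, Lrp1b, Lrrtm4 and Mgat4c were among these 80.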

How the data were processed

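ATAC-seq of 2 old and 2 young samples of mouse MSCs was analysed, with groups and replicate numbers taken from the sample labels. The submitters' processing notes name Bowtie2, Picard and mm10. The peak caller is not given in the sources used here. The deposited values, which the authors call RPKM, were treated as a score: each was a whole multiple of 1 step per sample (100% of values within a tolerance of 1e-06), so counts and library totals could be recovered, and they were not divided by peak length. Peaks ended within GRCm38 chromosomes.

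Values were divided by RLE factors, and log2(value + 1) was tested with limma 3.58.1 in R 4.3.3 (eBayes with trend and robust moderation, no block, Benjamini-Hochberg over all 117282 peaks or 7464 gene sums, threshold 0.01). RLE factors were computed separately for peaks and for gene sums. Fold changes of low peaks are understated by the pseudocount. In simulated data of 117282 peaks with 200 changes, 94% of changes of 2 and 22% of changes of 1 on the log2 scale were recovered, with 1 false call. For the 7464 gene sums it was 99% and 64%, with 2 false calls, and without change both steps made 0 calls. The changed features were drawn only from those above a minimum mean count, and the noise had a fixed dispersion that was not estimated from these samples. Recovery among members of few counts was therefore not measured. Summaries used Python 3.11.15, numpy 2.4.6, pandas 2.3.3, scipy 1.17.1 and matplotlib 3.10.9. Intervals are exact (Clopper-Pearson, 95%) and cover counting error only.

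Members, gene lists and motifs were chosen with earlier results of these data known. Named were members past the threshold, filled to 5 in each direction by fold change among those at an unadjusted p under 0.01 whose groups did not overlap and whose mean value was at least 5 in a group, the 10 hosts with most members, the 5 densest members, the 5 genes of smallest p in each direction and 3 genes per list. Alternatives were other scalings (as deposited, quantile, equal total signal), pseudocounts of 0.1 and 5, a filter on the lowest quartile, plain moderation, a replicate block, genes over 500 kb, adjustment for GC content and width, and each sample left out. Added after seeing the data were limma-voom on recovered counts, models that hold 5 or more other genes left out, chromosome 11 left out, peaks over 50 kb from starts and the same adjustment of gene medians.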

Additional observations from a re-analysis of the deposited data

How the results depend on the processing

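The number of members past an adjusted p of 0.01 (2 lower, 1 higher) depended on the settings. It was 180 lower and 4 higher as deposited, 5 and 2 with quantile normalization, 1 and 1 with equal total signal, 0 and 1 with pseudocount 0.1, 6 and 2 with pseudocount 5, 0 and 1 without the lowest quartile of peaks, 0 and 0 with plain moderation, 120 and 28 with a replicate block, 17 and 2 in limma-voom, and 129 and 33 at a limit of 0.05. Leaving out 1 sample gave 0 to 717 lower and 0 to 259 higher, with 717 and 259 without old replicate 1, 144 and 31 without old replicate 2, and 0 without either young replicate. The 3 calls were kept as deposited, with quantile normalization, pseudocount 5, the block, limma-voom and without either old replicate. There were 2 with equal total signal and 1 with pseudocount 0.1 or without the lowest quartile. All were lost without either young replicate and with plain moderation. Very long genes past 0.01 (0 and 0) were 33 lower and 0 higher as deposited, 25 and 1 with the block, 3 and 0 in limma-voom, 14 and 1 at 0.05, and 0 to 223 lower and 0 to 29 higher without 1 sample. With 3 samples, the lone sample of a group is assumed to vary like the other group. Nothing in the labels ties old and young samples of 1 number. Deviations of same-numbered samples correlated at -0.0993 over all peaks and -0.0955 over members. With 2 samples in each group, this cannot decide whether samples of 1 number were handled together. The median log2 fold change of members was -0.31 as deposited and -0.078 to -0.0099 without 1 sample. Its difference from shorter genes kept its sign in 15 alternatives, and was -0.15 to -0.058 without 1 sample. The density ratio to shorter genes was 0.973 when values were not divided by peak width, and 1.01 to 1.06 without 1 sample. The cause of these shifts was not tested. Counts limit the weakest members, where 3 counts stand for a value near 1.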

Other observations

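The X chromosome was outside the rule. The same rule without that limit gave 199 intronic peaks in 23 X-linked genes longer than 300 kb, led by Mid1 with 46, a ubiquitin ligase of microtubules, Sh3kbp1 with 22, an adaptor protein, and Arhgap6 with 18. Dmd, the dystrophin gene, had 9. Their median deposited value was 7.34 and 8.60 in the old and 10.97 and 11.9 in the young replicates, so each young sample was above each old one. After the RLE factors, 76.9% of them had lower values in old MSCs. Their median log2 fold change was -0.27, with medians between -0.48 and -0.16 for the 4 pairs. At an unadjusted p under 0.05 in limma, 41 of the 199 were lower and 4 higher, against 8.87% and 7.49% of all peaks. Past an adjusted p of 0.01 there were 0. The 526 intronic peaks of shorter X-linked genes had a median of -0.15.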
